A study of Mus musculus with 12 samples.

Results

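The genes described here build, cut and stiffen the extracellular matrix: the matrix metalloproteinases (Mmp genes), their tissue inhibitors (Timp1 to Timp4), the ADAMTS proteases and ADAMTS-like proteins, and the lysyl oxidases (Lox and Loxl1 to Loxl4). They were chosen by symbol alone, as the protein-coding genes of GENCODE mouse release M39 whose names begin with Mmp and a digit or with Adamts, or are Timp1 to Timp4, Lox or Loxl1 to Loxl4. This gave 57 of the 78298 genes in the count table: 23 metalloproteinases, 4 inhibitors, 19 ADAMTS proteases, 5 ADAMTS-like genes, 5 lysyl oxidases and Mmp24os1. The last only shares a name with Mmp24, which it overlaps on the opposite strand, and it is not a metalloproteinase.

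RNA was sequenced from mouse lung in 12 libraries, 3 in each of 4 groups: normal adjacent lung or dissected LLC tumour, each from animals given HDM or VEH. HDM is house dust mite per the series title, and its exposure was chronic. LLC and VEH are not spelled out in the labels, and strain, sex, age, dose and how the tumours were started are not given in the sources used here. The labels number the replicates but do not say that each is a separate animal, so p-values measure the spread between these libraries. Library names carry 6 prefixes that each join 1 normal and 1 tumour library, and for 2 prefixes the treatment labels of the pair differ: tumour HDM replicate 2 has the prefix of normal VEH replicate 2, and tumour VEH replicate 3 that of normal HDM replicate 3. Labels were kept as given. The main comparison is the difference between tumour and normal tissue, taken within VEH and within HDM and then averaged with equal weight, so the treatment labels enter it. For a gene at 0 counts in 1 group, such as Mmp10 in normal HDM, the average depends on that group.

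Metalloproteinases are zinc enzymes made as inactive precursors. Between them they cut collagens, gelatin, elastin, proteoglycans and other matrix proteins, and the membrane-type members act at the cell surface, where Mmp14 also activates the Mmp2 precursor. Timp proteins bind to the active site and block it, and Timp3 also inhibits several ADAMTS enzymes. ADAMTS proteases cut proteoglycans such as versican and aggrecan, or trim the amino-terminal propeptides of fibrillar procollagens, whereas ADAMTS-like proteins lack the protease domain and bind fibrillin microfibrils. Lysyl oxidases oxidise lysines of collagen and elastin so that fibres can be crosslinked. In healthy lung this system maintains elastic fibres and basement membranes, and in tumours and inflamed lung it is known for remodelling them.

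Many metalloproteinase promoters carry a binding motif of AP-1, the dimer of Fos and Jun family proteins, close to the start of transcription. The 150 bases before the start of the canonical GENCODE M39 transcript (GRCm39, all on the plus strand) are shown for 5 metalloproteinase genes that were higher in tumour and for 2 genes that were lower, to let the upstream sequences be compared. Capitals mark every match, on either strand, to the AP-1 motif TGANTCA. They also mark the TATA box, searched as TATAAA on either strand. The GC box was searched as GGGCGG and is marked in the same way. The motifs do not overlap in these sequences.
Mmp3, chr9:7445672-7445821: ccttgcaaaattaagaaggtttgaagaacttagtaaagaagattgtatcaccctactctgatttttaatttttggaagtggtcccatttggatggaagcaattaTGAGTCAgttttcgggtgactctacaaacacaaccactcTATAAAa
Mmp10, chr9:7502203-7502352: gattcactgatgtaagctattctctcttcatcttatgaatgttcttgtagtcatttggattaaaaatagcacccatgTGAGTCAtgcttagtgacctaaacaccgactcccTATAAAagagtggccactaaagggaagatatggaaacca
Mmp12, chr9:7347224-7347373: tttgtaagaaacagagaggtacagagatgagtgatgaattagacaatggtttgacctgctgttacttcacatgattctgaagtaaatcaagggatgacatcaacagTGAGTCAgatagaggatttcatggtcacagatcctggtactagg
Mmp13, chr9:7272364-7272513: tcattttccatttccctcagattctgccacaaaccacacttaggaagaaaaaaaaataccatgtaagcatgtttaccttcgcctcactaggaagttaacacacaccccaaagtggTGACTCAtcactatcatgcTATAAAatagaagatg
Mmp14, chr14:54668728-54668877: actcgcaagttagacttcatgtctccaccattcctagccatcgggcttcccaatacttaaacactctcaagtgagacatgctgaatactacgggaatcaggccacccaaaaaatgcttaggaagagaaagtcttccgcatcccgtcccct
Timp3, chr10:86136086-86136235: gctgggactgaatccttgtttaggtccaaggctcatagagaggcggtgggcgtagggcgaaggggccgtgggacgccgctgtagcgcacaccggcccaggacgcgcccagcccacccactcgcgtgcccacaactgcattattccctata
Mmp15, chr8:96078745-96078894: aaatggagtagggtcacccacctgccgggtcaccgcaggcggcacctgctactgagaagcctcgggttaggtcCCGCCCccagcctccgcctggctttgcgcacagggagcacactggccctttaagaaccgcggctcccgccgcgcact

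The AP-1 letters begin 46 bases before the start in Mmp3, 73 in Mmp10, 44 in Mmp12 and 35 in Mmp13. Mmp3, Mmp10 and Mmp13 also hold TATAAA, 7, 39 and 16 bases before the annotated start. The G and C content of these 150 bases was between 35.3% and 40.0% in the 4 genes of chromosome 9, 48.0% in Mmp14, 64.0% in Timp3 and 67.3% in Mmp15. Over 250 bases, TGANTCA was found in 5 of the 15 members called higher in tumour (33.3%: the 4 genes of chromosome 9 and Mmp19) and in 2 of the 26 called lower (7.69%: Adamts3 and Mmp28). It was also found in 4 of the 9 members with too few counts to test and in 1 of the 7 that were not called. Of 21723 protein-coding genes, 6.19% hold it in the same window. TATAAA was in 4 of 15, 3 of 26 and 11.9% of these sets, and GGGCGG in 6 of 15, 14 of 26 and 36.3%. These are matches of letters, not measured binding.

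Libraries held from 20608682 to 32765364 counts. Levels are CPM, the count of a gene relative to the size of its library after scaling by the trimmed mean of M values (TMM), and lists of 3 values are for replicates 1, 2 and 3 in that order. Markers of lung tissue were present in the pieces labelled normal, with Sftpc, the surfactant gene of alveolar type 2 cells, between 8497 and 25182 CPM. They were also present, at lower levels, in most tumours. The summed level of 6 alveolar markers ranged from 16940 to 42350 CPM in normal tissue, was highest among tumours in VEH replicate 2 (8429 CPM) and lowest in HDM replicate 3 (38.00 CPM), and was between 2212 and 2415 CPM in the other tumours. Endothelial markers summed to 1509 to 3136 CPM in normal tissue and 87.46 to 521.4 CPM in tumours. The sum of 7 fibroblast markers went the other way, from 842.9 to 3137 CPM in normal tissue to 5461 to 13960 CPM in tumours. It was lowest among tumours in VEH replicate 2. The list itself was split, with 4 markers called higher in tumour and 2 lower. Col3a1 gave 2860 to 10276 CPM of the tumour sums. Col1a2 was at 149 to 589 CPM in normal tissue and 36.5 to 156 CPM in tumours. Cell cycle genes summed to 27.11 to 147.1 CPM in normal tissue and 485.9 to 1006 CPM in tumours. Smooth muscle and pericyte markers varied within normal tissue, at 1611 CPM in VEH replicate 1 and 1533 CPM in HDM replicate 3 against 116.9 to 444.7 CPM elsewhere. Neutrophil markers were at 799.5 CPM in normal VEH replicate 2 and 557.7 CPM in normal HDM replicate 1, against 11.08 to 79.43 CPM in the other 10 libraries. In bulk tissue, fewer cells of a type and less RNA per cell cannot be told apart. The part that cell composition plays in the results was not tested.

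Most of these matrix genes differed between tumour and lung, and the falls outnumbered the rises. Of the 48 members with enough counts to test, 41 were called at an adjusted p below 0.05, against 62.9% of all 22190 genes tested (edgeR quasi-likelihood test, Benjamini-Hochberg adjustment over all genes). There were 15 members higher in tumour, 31.2% of those tested against 28.1% of all genes, and 26 lower, 54.2% against 34.8%. The median log2 change was -0.79 over the members and -0.09 over all genes. The 6 tumours and the 6 normal libraries did not overlap for 8 members higher and 17 lower in tumour, against 16.4% and 19.9% of all genes. Of the 15 higher members, 14 were higher in the tumour library of all 6 prefix pairs, and 21 of the 26 lower members were lower in all 6. These members were called on the same 12 libraries, and the pairs were not counted over all genes. The pair counts are therefore not a separate result about the members. Mmp3 was the exception among the rises, at 5 of 6 pairs.

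**Figure D1:**
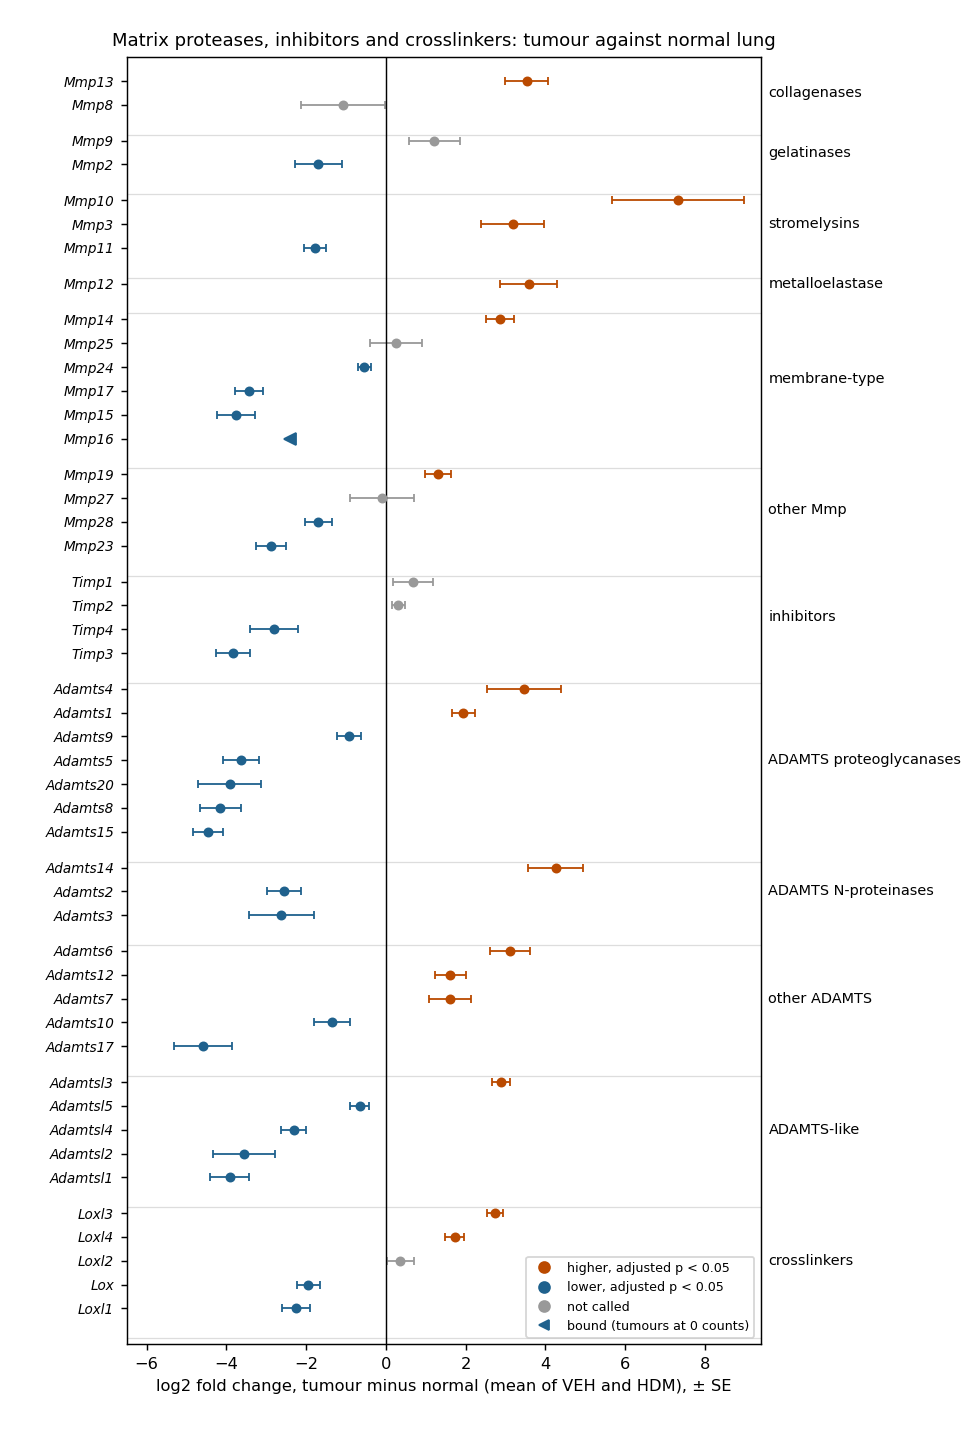
Log2 fold change of tumour against normal lung, averaged over VEH and HDM, with its standard error, for the 47 tested members other than Mmp24os1, grouped by role. Orange points are called higher, blue points called lower and grey points not called. Close relatives differ in direction, for example Mmp14 at 2.86 and Mmp15 at -3.76, and the arrow for Mmp16 is a bound because all tumours held 0 counts. The value of Mmp10 rests on normal libraries of which 4 held 0 counts.

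Among the collagenases, which cut fibrillar collagen, Mmp13 (ENSMUSG00000050578) rose. It was at 0.575, 0.944 and 0.505 CPM in normal VEH, 0.573, 0.302 and 0.957 CPM in normal HDM, 16.2, 8.55 and 10.1 CPM in VEH tumours and 7.19, 6.69 and 0.698 CPM in HDM tumours. All tumours except HDM replicate 3 were above all normal libraries. The log2 fold change was 3.53 ± 0.55 (SE, adjusted p 0.000287). Mmp8, the collagenase of neutrophil granules, was not called (-1.07 ± 1.06, adjusted p 0.396). It was at 22.8 CPM in normal VEH replicate 2 and 21.1 CPM in normal HDM replicate 1, the libraries with the highest neutrophil marker sums, and between 0.253 and 9.32 CPM in the other 10. Mmp1a and Mmp1b had too few counts to test: the table holds 20 and 40 counts, all of them in tumours, and Mmp1b overlaps the much more abundant Mmp12 on the opposite strand.

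The gelatinases, which cut denatured collagen and basement membrane collagen, did not move together. Mmp2, made mainly by mesenchymal cells, was lower in tumour (-1.69 ± 0.60, adjusted p 0.03). It ranged from 29.9 to 135 CPM in normal tissue and from 2.85 to 58.8 CPM in tumours. This call did not hold under 9 of 21 alternatives, 6 of which left out 1 library: normal VEH replicate 1, normal HDM replicate 3, any of the 3 VEH tumours, or HDM tumour replicate 2. Mmp9, which neutrophils and macrophages make, was not called (1.22 ± 0.63, adjusted p 0.113). Its tumour values were 62.7, 69.4 and 55.3 CPM under VEH and 59.7, 69.9 and 27 CPM under HDM. In normal tissue it was at 54.7 CPM in VEH replicate 2 and 50.3 CPM in HDM replicate 1, and at 2.36 to 14.9 CPM in the other 4. Mmp9 was called as higher under 3 of 21 alternatives: leaving out either of these 2 normal libraries, and a replicate block, which keeps all 12 libraries.

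The stromelysins Mmp3 and Mmp10, which cut proteoglycans and other matrix proteins and activate other Mmp precursors, rose. Mmp3 (ENSMUSG00000043613) was at 45.8, 18.5 and 22.5 CPM in normal VEH and 17.6, 19 and 23.2 CPM in normal HDM. In tumours it was at 384, 6.62 and 250 CPM under VEH and 355, 51.3 and 257 CPM under HDM. VEH tumour replicate 2 was the exception, below every normal library, and it is the tumour with the highest alveolar and the lowest fibroblast marker sum. Of the fibroblast markers, Col3a1, Dcn and Pdgfra were lowest in this tumour, whereas Col1a1, Col1a2, Lum and Pdgfrb were lower in another tumour. The log2 fold change was 3.18 ± 0.78 (adjusted p 0.00484). Mmp10 was at 0.493, 0.283 and 0 CPM in normal VEH and at 0 counts in all 3 normal HDM libraries. Its tumour values were 7.86, 0.223 and 16.1 CPM under VEH and 10.5, 1.23 and 0.455 CPM under HDM, so tumours varied widely. Against a floor of 3 counts per library, the mean of Mmp10 over HDM tumours was at least 35.2-fold above HDM normal tissue. That mean came mostly from replicate 1, so the bound does not hold for each tumour. HDM tumour replicate 3 (0.455 CPM) lay below normal VEH replicate 1 (0.493 CPM). Its call in the main comparison (adjusted p 0.00465) was lost without the 4 libraries of conflicting prefixes (adjusted p 0.0564). Mmp11, named a stromelysin but with weak activity on matrix proteins, went the other way. It was at 110 to 240 CPM in normal tissue and 32.5 to 79.5 CPM in tumours, with no overlap (-1.78 ± 0.27, adjusted p 0.00024), and shares exon positions with Chchd10 on the opposite strand, which had 32406 counts in all libraries against 33685.

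Mmp12, the elastase of macrophages, was at 5.67, 22.2 and 3.54 CPM in normal VEH and 8.36, 11.6 and 7.22 CPM in normal HDM. It rose to 214, 52 and 89.9 CPM in VEH tumours and 108, 220 and 12.9 CPM in HDM tumours. HDM tumour replicate 3 overlapped the normal range, as it did for Mmp13. The log2 fold change was 3.58 ± 0.71 (adjusted p 0.00147), or 4.17 without normal VEH replicate 2. The 6 macrophage markers summed to 125.6 to 589.4 CPM in normal tissue and 349.5 to 749 CPM in tumours. The sum of HDM tumour replicate 3 was 749 CPM, of which Mrc1 gave 352 CPM. Its Mrc1, Adgre1 (90.2 CPM) and Marco (4.25 CPM) were the highest among tumours, and its Cd68 (77.9 CPM) was the lowest. Its Csf1r (188 CPM) and Fcgr1 (36.1 CPM) lay within the range of the other tumours. Mmp7, the matrilysin, was not tested, with 14 counts in all, none of them in tumours.

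Mmp3, Mmp10, Mmp12 and Mmp13 lie within 1 cluster of 10 Mmp genes on chromosome 9 (GRCm39, chr9:7272514-7699587). Their order there is Mmp13, Mmp12, Mmp1b, Mmp3, Mmp1a, Mmp10, Mmp8, Mmp27, Mmp20 and Mmp7. The 6 genes at the Mmp13 end either were called higher or, for Mmp1a and Mmp1b, had counts in tumours only. Of the other 4, Mmp8 and Mmp27 were not called, Mmp20 had 0 counts in every library and Mmp7 had counts in normal HDM only.

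**Figure D2:**
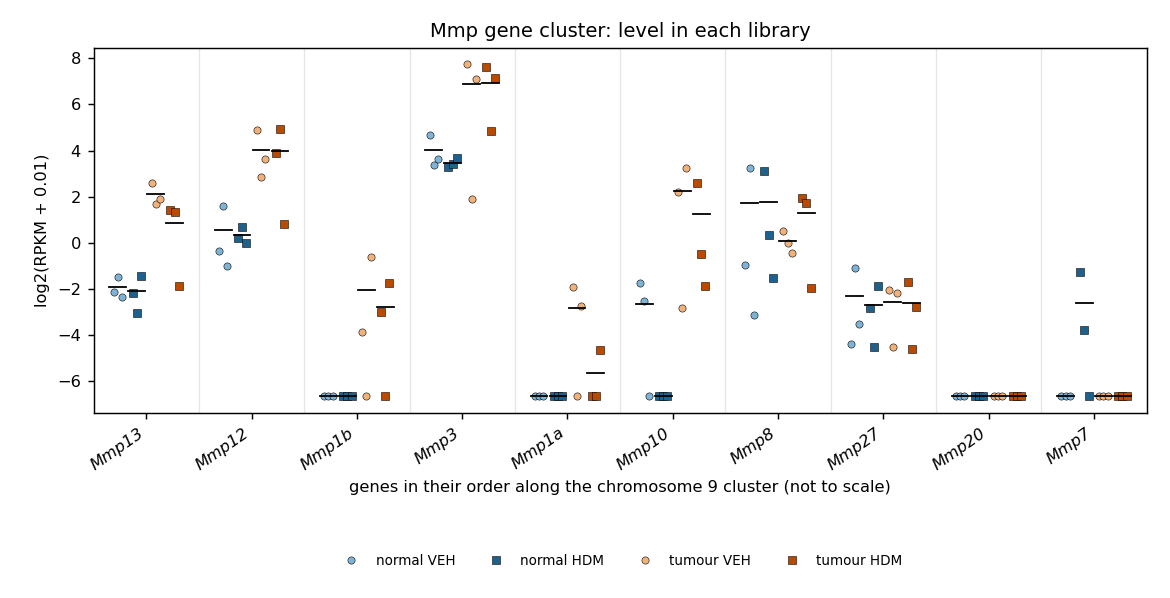
Level of the 10 genes of the chromosome 9 cluster in each of the 12 libraries, as log2(RPKM + 0.01), in gene order. RPKM is CPM per kilobase of the deposited gene length, bars are group means of 3 libraries, and points at the bottom are libraries with 0 counts. Mmp13, Mmp12, Mmp3 and Mmp10 are higher in most tumours, whereas Mmp8 and Mmp27 overlap between tissues.

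Of the 6 membrane-type genes, 1 rose and 4 fell. Mmp14 (ENSMUSG00000000957, chromosome 14, 54668878 to 54682821), a collagenase of the cell surface, was at 91.8, 215 and 48.8 CPM in normal VEH and 128, 60.2 and 98.6 CPM in normal HDM. It was at 834, 533 and 765 CPM in VEH tumours and 813, 1002 and 706 CPM in HDM tumours. Every tumour was above every normal library, and the log2 fold change was 2.86 ± 0.35 (adjusted p 7.32e-05). Mmp15 (ENSMUSG00000031790, chromosome 8, 96078895 to 96101708), a close relative, showed the reverse. It was at 292, 188 and 273 CPM in normal VEH, 241, 374 and 280 CPM in normal HDM, 18.6, 73.1 and 25.7 CPM in VEH tumours and 16.3, 12 and 2.91 CPM in HDM tumours (-3.76 ± 0.47, adjusted p 8.45e-05). Within tumours, Mmp15 was highest in VEH replicate 2 and lowest in HDM replicate 3, the tumours with the most and the least alveolar marker RNA. Per gene length, Mmp14 made up 12% to 46.9% of the RPKM of the 6 membrane-type genes in normal libraries and 82.6% to 96.8% in tumours, and Mmp15 45.2% to 82.3% and 0.44% to 12.5%.

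Mmp17, which is anchored by a lipid rather than a membrane-spanning segment, was at 2.34 to 5.67 CPM in normal tissue and 0.137 to 0.521 CPM in tumours (-3.43 ± 0.35, adjusted p 2.45e-05). Mmp16 held 0 counts in all 6 tumours and from 0.0819 to 1.77 CPM in normal libraries. Against the floor of 3 counts per library, tumours were at least 5.26-fold below the mean of the normal libraries. Mmp24 changed little (-0.54 ± 0.16, adjusted p 0.0124), and its call was lost under 7 of 21 alternatives, among them scaling by library size only. Mmp24os1 had -0.43 ± 0.11 (adjusted p 0.00636), and the reads of this overlapping pair may be shared. Mmp25, a leukocyte enzyme, was not called (0.26 ± 0.65, adjusted p 0.744).

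Among the remaining metalloproteinases, Mmp19 rose (1.31 ± 0.32, adjusted p 0.00493), from 14.6 to 57.5 CPM in normal tissue to 55.1 to 134 CPM in tumours. It shares exon positions with Tmem198b on the opposite strand. Mmp23 fell. It was at 27.3, 15.4 and 15.2 CPM in normal VEH, 13.4, 25.4 and 15.2 CPM in normal HDM, 1.53, 8.03 and 5.17 CPM in VEH tumours and 1.48, 1.37 and 1.03 CPM in HDM tumours (-2.88 ± 0.38, adjusted p 0.000103). Mmp28, an epithelial enzyme also known as epilysin, was at 23.2, 13.4 and 20.2 CPM in normal VEH, 28.7, 25.4 and 23.5 CPM in normal HDM, 14.7, 15.7 and 4.61 CPM in VEH tumours and 5.59, 4.47 and 2 CPM in HDM tumours. It was lower as well (-1.69 ± 0.33, adjusted p 0.00124), with overlap between VEH tumours and normal tissue. Mmp27 was near the detection limit and not called (-0.10 ± 0.80, adjusted p 0.919), and Mmp20 and Mmp21 had 0 counts in all libraries.

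**Figure D3:**
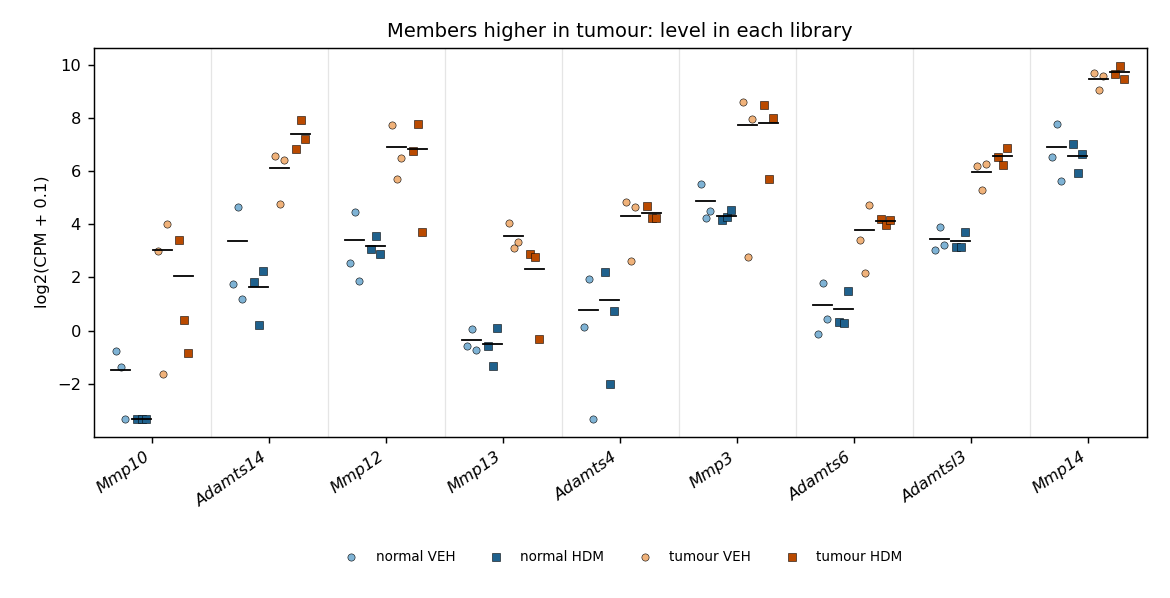
Level in each of the 12 libraries, as log2(CPM + 0.1), of Mmp14 and of the 8 members that rose most in tumour among those whose average log2 CPM was 1 or more. Bars are the group means of 3 libraries. For Mmp14, Adamtsl3, Adamts6, Adamts4 and Adamts14 every tumour is above every normal library, whereas VEH tumour replicate 2 is low for Mmp3 and Mmp10 and HDM tumour replicate 3 is low for Mmp12 and Mmp13.

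None of the 4 inhibitors was called higher in tumour, and 2 were lower. Timp3 (ENSMUSG00000020044, chromosome 10, 86136236 to 86185371), the inhibitor that stays bound to the matrix, had the larger fall. It was at 661, 726 and 572 CPM in normal VEH and 989, 701 and 657 CPM in normal HDM. It was at 35.4, 109 and 48.4 CPM in VEH tumours and 42.7, 62 and 12 CPM in HDM tumours, far below all normal libraries (-3.84 ± 0.42, adjusted p 4.05e-05). Timp3 lies within Syn3, which has 84927 counts on the opposite strand against 121376 for Timp3, so some counts may be shared. Timp4 was at 8.09, 3.84 and 3.2 CPM in normal VEH, 3.6, 7.59 and 5.34 CPM in normal HDM, 0.382, 4.61 and 0.83 CPM in VEH tumours and 0.411, 0.342 and 0.121 CPM in HDM tumours. Only VEH tumour replicate 2 overlapped the normal range (-2.80 ± 0.60, adjusted p 0.00216, or -3.64 without that library).

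Timp2, the partner of Mmp14 in activating the Mmp2 precursor, was at 606, 672 and 544 CPM in normal VEH, 755, 628 and 667 CPM in normal HDM, 698, 747 and 505 CPM in VEH tumours and 918, 1328 and 693 CPM in HDM tumours. It was not called (0.31 ± 0.16, adjusted p 0.123), and it passed when libraries were scaled by size only (0.46, adjusted p 0.0275), without tumour VEH replicate 3 (0.49, 0.0353) or without tumour HDM replicate 3 (0.52, 0.0139). Timp1, which inflammatory signals induce, was nearly even across tumours, at 34.3, 34.9 and 37.9 CPM under VEH and 29, 34.1 and 31.4 CPM under HDM. In normal tissue it was at 12.9, 75.4 and 6.32 CPM under VEH and 21, 11.6 and 8.47 CPM under HDM. It was not called in the main comparison (0.69 ± 0.50, adjusted p 0.253). It was called higher in tumour with a block for the library-name prefix, which keeps all 12 libraries (1.13, adjusted p 0.0141), and without the 4 libraries of conflicting prefixes (1.47, 0.00728). The same held without normal VEH replicate 2, the only normal library above the tumours (1.55, 0.000545). Per gene length, Timp3 made up 26.7% to 37.5% of the RPKM of the 4 Timp genes in normal libraries and 0.735% to 5.83% in tumours. The sum of the 4 overlapped, at 267 ± 50.5 RPKM in normal tissue and 237 ± 66.8 RPKM in tumours (SD, n = 6 each).

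The 7 ADAMTS proteoglycanases split, with 2 higher and 5 lower in tumour. Adamts1, the most abundant ADAMTS member in both tissues, was at 60.1, 92.4 and 94.2 CPM in normal VEH, 122, 62.4 and 102 CPM in normal HDM, 249, 158 and 333 CPM in VEH tumours and 326, 755 and 321 CPM in HDM tumours. All tumours were above all normal libraries (1.94 ± 0.29, adjusted p 0.000244). Adamts4, an aggrecanase, was at 0.986, 3.78 and 0 CPM in normal VEH, 4.55, 0.151 and 1.58 CPM in normal HDM, 28.2, 5.99 and 25.2 CPM in VEH tumours and 25.5, 18.9 and 18.8 CPM in HDM tumours (3.47 ± 0.92, adjusted p 0.00725). Its value was 4.32 without normal VEH replicate 2 and 4.10 without normal HDM replicate 1. The counts of Adamts4 are uncertain where the strand setting of the counting is unknown.

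Adamts5, the other main aggrecanase, and its relatives Adamts8 and Adamts15 fell. Adamts5 was at 39.9, 49.5 and 38.6 CPM in normal VEH, 28.1, 38.2 and 45 CPM in normal HDM, 0.765, 7.77 and 4.24 CPM in VEH tumours and 2.63, 3.07 and 1.58 CPM in HDM tumours (-3.63 ± 0.45, adjusted p 7.99e-05). Adamts5 and Adamts1 are neighbours on chromosome 16 and moved in opposite directions. Adamts15 was at 51.3, 38.5 and 20.5 CPM in normal VEH, 70.9, 33.1 and 57.4 CPM in normal HDM, 1.19, 1.64 and 1.94 CPM in VEH tumours and 3.86, 2.8 and 1.03 CPM in HDM tumours (-4.46 ± 0.38, adjusted p 1.16e-05). Adamts8, its neighbour on chromosome 9, was at 43.1, 5.03 and 17.8 CPM in normal VEH, 18.9, 17.9 and 36.3 CPM in normal HDM, 1.36, 1.71 and 1.85 CPM in VEH tumours and 1.4, 1.16 and 0.546 CPM in HDM tumours (-4.15 ± 0.51, adjusted p 6.73e-05). None of these 3 genes overlapped between tissues. Adamts20 was low in normal tissue (0.983 to 5.3 CPM) and at most 0.372 CPM in tumours (adjusted p 0.00134). Adamts9 was called lower (-0.92 ± 0.30, adjusted p 0.019), and the call was lost under 8 of 21 alternatives.

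**Figure D4:**
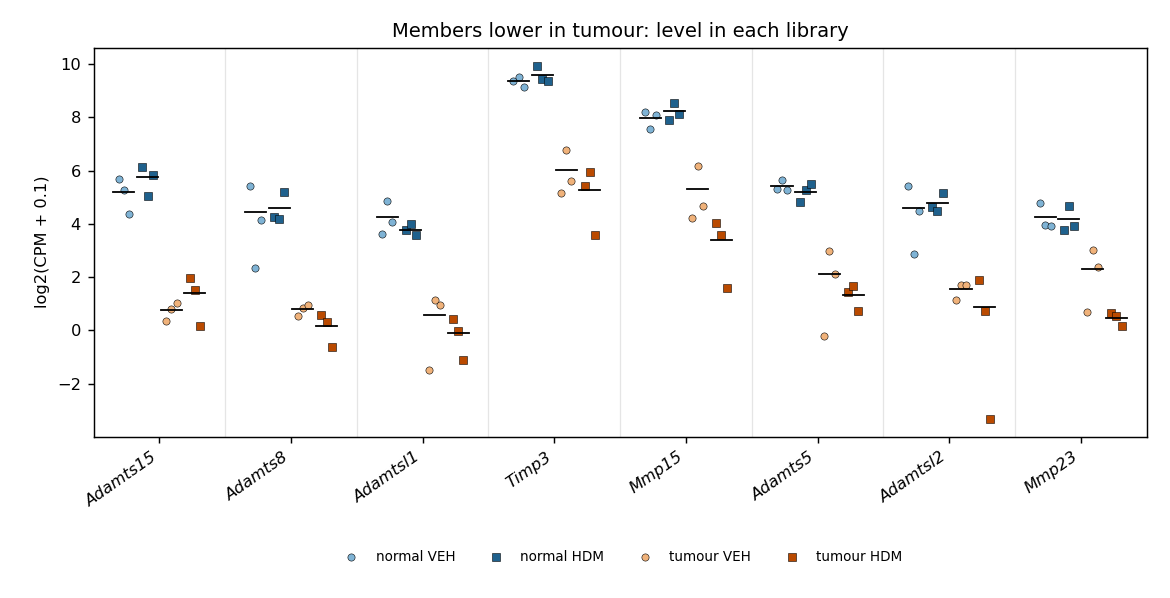
Level in each of the 12 libraries, as log2(CPM + 0.1), of the 8 members that fell most in tumour among those whose average log2 CPM was 1 or more. Bars are the group means of 3 libraries. Every tumour is below every normal library for all 8 genes, and VEH tumour replicate 2 is the highest tumour for Timp3, Mmp15, Adamts5, Mmp23 and Adamtsl1.

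The 3 procollagen N-proteinases, which remove the amino-terminal propeptide of fibrillar procollagens, also split. Adamts14 was at 3.29, 25 and 2.19 CPM in normal VEH, 3.48, 1.06 and 4.6 CPM in normal HDM, 93.9, 26.7 and 84.4 CPM in VEH tumours and 114, 245 and 147 CPM in HDM tumours. All tumours were above all normal libraries, though VEH tumour replicate 2 and normal VEH replicate 2 were close (4.26 ± 0.69, adjusted p 0.000426, or 5.21 without normal VEH replicate 2). Adamts2 was at 80, 26.8 and 22 CPM in normal VEH, 33.8, 35.3 and 62 CPM in normal HDM, 5.1, 6.4 and 11.1 CPM in VEH tumours and 13, 4.17 and 4.67 CPM in HDM tumours (-2.55 ± 0.43, adjusted p 0.000569). Adamts14 thus took 4.95% to 61.4% of the RPKM of the 3 genes in normal libraries and 87.6% to 99.1% in tumours, and Adamts2 36.6% to 92.1% and 0.938% to 11.7%. Adamts3 was at most 0.884 CPM in any library and called lower (adjusted p 0.0154), a call lost with a block for the library-name prefix and without the 4 libraries of conflicting prefixes.

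Of the 9 other ADAMTS proteases, 5 were tested. Adamts6 was at 0.821, 3.4 and 1.26 CPM in normal VEH, 1.15, 1.13 and 2.73 CPM in normal HDM, 10.6, 4.39 and 26.3 CPM in VEH tumours and 18.2, 15.5 and 17.6 CPM in HDM tumours (3.12 ± 0.50, adjusted p 0.000371). Adamts7 and Adamts12, which cut cartilage oligomeric matrix protein, also rose (1.61 ± 0.53, adjusted p 0.0209, and 1.62 ± 0.39, adjusted p 0.00419). Both were called under HDM (adjusted p 0.0392 and 0.0112) but not under VEH (1.14, 0.234, and 1.22, 0.1). Adamts7 shares exon positions with Tbc1d2b on the opposite strand (19660 counts against 4294). Adamts10 and Adamts17, which are linked to fibrillin microfibrils, fell. Adamts17 was at 2.26, 0.378 and 1.47 CPM in normal VEH, 2.05, 0.793 and 3.98 CPM in normal HDM, 0.17, 0.223 and 0.185 CPM in VEH tumours and 0, 0 and 0.0607 CPM in HDM tumours. With at most 2 counts in any HDM tumour, it was at least 21.5-fold lower there than the mean of HDM normal tissue. The call of Adamts10 (-1.34 ± 0.45, adjusted p 0.024) was lost under 8 of 21 alternatives. Adamts13, which cuts von Willebrand factor, and Adamts16, Adamts18 and Adamts19 had from 0 to 60 counts in all and were not tested.

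Adamtsl3 was the 1 ADAMTS-like gene that rose. It was at 8.13, 14.9 and 9.09 CPM in normal VEH, 8.72, 8.68 and 13 CPM in normal HDM, 72.1, 39.4 and 76.8 CPM in VEH tumours and 93.1, 75.2 and 118 CPM in HDM tumours (2.89 ± 0.23, adjusted p 8.4e-06). The other 4 fell. Adamtsl1 was at 12.3, 28.6 and 16.6 CPM in normal VEH, 13.5, 15.7 and 12 CPM in normal HDM, 0.255, 2.08 and 1.85 CPM in VEH tumours and 1.23, 0.888 and 0.364 CPM in HDM tumours (-3.92 ± 0.49, adjusted p 7.33e-05). Adamtsl2 was at 43.3, 7.17 and 22.5 CPM in normal VEH, 24.5, 22.6 and 35.5 CPM in normal HDM, 2.12, 3.2 and 3.14 CPM in VEH tumours and 3.61, 1.57 and 0 CPM in HDM tumours (-3.56 ± 0.77, adjusted p 0.0025). Adamtsl4 had -2.31 ± 0.31 (adjusted p 0.00011). Adamtsl5 had -0.66 ± 0.24 (adjusted p 0.031), and this smaller change was not called under 9 of 21 alternatives.

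The crosslinkers changed in makeup. Lox was at 60.1, 43.9 and 33 CPM in normal VEH, 69.4, 43.3 and 52.9 CPM in normal HDM, 8.07, 11.9 and 16.3 CPM in VEH tumours and 19.1, 16.5 and 6.37 CPM in HDM tumours (-1.95 ± 0.29, adjusted p 0.000242). Loxl1, which acts on elastic fibres, was at 111, 134 and 42.5 CPM in normal VEH, 87.4, 72.3 and 106 CPM in normal HDM, 35.9, 11.5 and 27 CPM in VEH tumours and 23, 10.7 and 11.6 CPM in HDM tumours (-2.25 ± 0.36, adjusted p 0.000404). Both were lower in every tumour than in every normal library. Loxl3 (ENSMUSG00000000693, chromosome 6, 83011152 to 83029543) was at 17.7, 27.3 and 19.1 CPM in normal VEH, 18.6, 13.6 and 22.4 CPM in normal HDM, 168, 103 and 100 CPM in VEH tumours and 125, 122 and 170 CPM in HDM tumours. This was the member with the smallest adjusted p (2.73 ± 0.20, adjusted p 5.82e-06), with the limit that it shares exon positions with Htra2 on the opposite strand (25496 counts against 24288).

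Loxl4 was at 3.53, 4.5 and 2.78 CPM in normal VEH, 2.74, 4.64 and 3.46 CPM in normal HDM, 16.4, 7.62 and 10.1 CPM in VEH tumours and 12.7, 10.6 and 14.6 CPM in HDM tumours (1.73 ± 0.24, adjusted p 0.000156). Loxl2 was at 25.9, 33.6 and 13.1 CPM in normal VEH, 15.2, 12.6 and 23.5 CPM in normal HDM, 13.8, 26.1 and 7.06 CPM in VEH tumours and 39.9, 59.6 and 30.4 CPM in HDM tumours, and was not called in the main comparison (0.36 ± 0.34, adjusted p 0.38). Its change was -0.62 under VEH (adjusted p 0.317) and 1.34 under HDM (adjusted p 0.0404). The call under HDM was made under only 13 of 22 alternatives. Loxl4 tumours lay above all normal libraries and Loxl2 tumours did not. Both share exon positions with a gene on the opposite strand, Loxl4 with R3hcc1l (7690 counts against 2492) and Loxl2 with R3hcc1 (7034 against 8253). Per gene length, Loxl1 held 47.7% to 64.4% of the RPKM of the 5 genes in normal libraries and 6.9% to 22.1% in tumours, and Loxl3 6.89% to 15.4% and 55.9% to 72.5%. The sum of the 5 genes overlapped between tissues, at 47.5 ± 13.1 RPKM in normal tissue and 45.6 ± 8.01 RPKM in tumours (SD, n = 6 each).

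**Figure D5:**
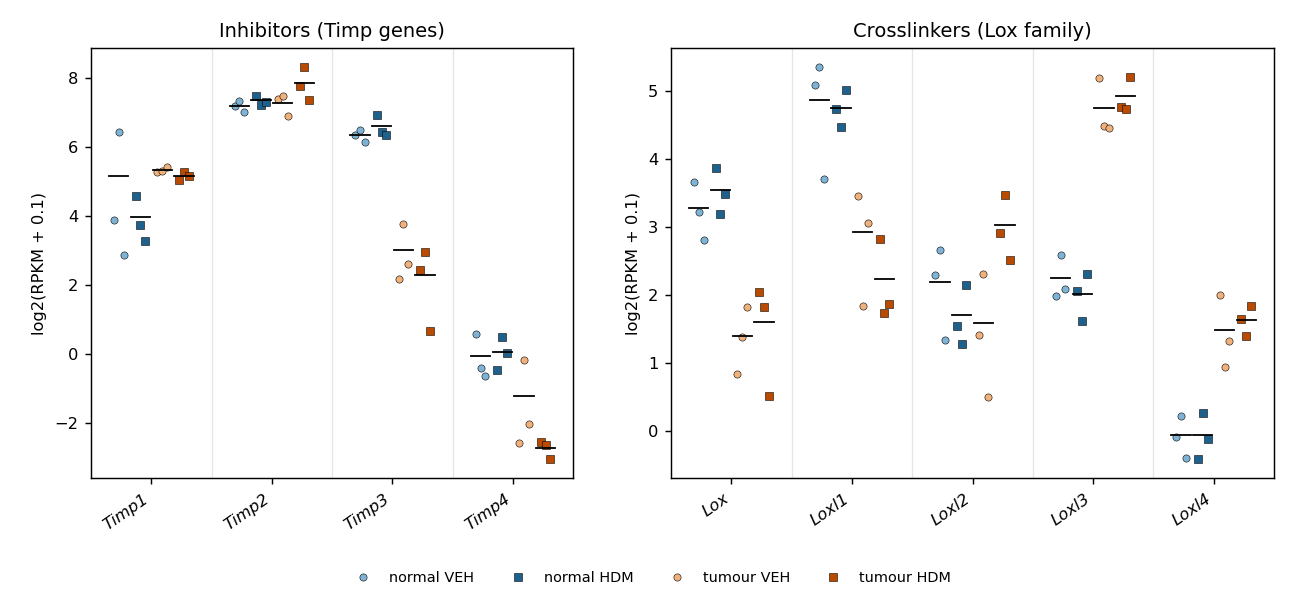
Level of the 4 Timp genes (left) and the 5 Lox family genes (right) in each of the 12 libraries, as log2(RPKM + 0.1). Bars are the group means of 3 libraries. Timp3 is lower in all 6 tumours while Timp2 overlaps between tissues, and Lox and Loxl1 are lower while Loxl3 and Loxl4 are higher in all 6 tumours.

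By level per gene length (RPKM, mean ± SD over 6 libraries), Timp2 stood first in normal tissue (152 ± 16.8), followed by Timp3 (88.1 ± 17.6), Mmp11 (59.9 ± 17.1) and Mmp15 (50.9 ± 11.4). Mmp11 and Mmp15 lay within their spread of each other. In tumours Timp2 was again first (192 ± 67), then Mmp14 (130 ± 26), Mmp3 (121 ± 86.5), Adamts1 (67.3 ± 38.9) and Timp1 (37.8 ± 3.43). The first 3 ranges overlapped, since Mmp3 ran from 3.68 to 213 RPKM.

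Taken separately, the comparison of tumour with normal tissue called 28 of 48 members under VEH (38.9% of all genes) and 37 under HDM (51.9%). These comparisons share no library, but they share 1 estimate of the spread, and 2 library-name prefixes cross the treatments. There were 26 members called in both, 92.9% of the VEH list and 70.3% of the HDM list, and all 26 changed in the same direction. The same overlap was not counted over all genes, so it is not read as particular to the members. Under VEH, 10 were higher and 18 lower, and under HDM 15 were higher and 22 lower. The 3 tumours and 3 normal libraries did not overlap under VEH for 12 members higher and 22 lower, against 23.9% and 28.5% of all genes. Under HDM this held for 16 higher and 24 lower, against 29.6% and 33.5%. Of all genes, 18.2% were called higher and 20.6% lower under VEH, and 23% and 28.9% under HDM. Whether the difference depends on treatment was tested by the interaction. It called 0 members and 0% of all genes (edgeR), with 7 members and 2084 genes at an unadjusted p below 0.05 and 0 members and 0.987% of all genes by DESeq2. The members with the smallest p there were Mmp28 (-1.99 ± 0.65, adjusted p 0.48), Loxl2 (1.97 ± 0.69, 0.493) and Adamts17 (-3.60 ± 1.40, 0.512). For Adamts17 this value rests on HDM tumours with at most 2 counts.

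In tumours, 0 members differed between HDM and VEH by edgeR, against 0.0946% of all genes (0.00901% higher and 0.0856% lower under HDM). Without adjustment, 10 members and 3698 of all genes had a p below 0.05. The DESeq2 Wald test called 4 members, Mmp15, Mmp23, Mmp28 and Timp4, all lower under HDM, and 5.89% of all genes (1308), so its count of 4 of 48 is read against a larger background. Tumours of the 2 treatments did not overlap for 2 members higher under HDM (Adamts14 and Loxl2) and 6 lower (Adamts17, Mmp13, Mmp15, Mmp17, Mmp23 and Timp1). These are 4.17% and 12.5% of the members, against 11.3% and 10.7% of all genes. The smallest p belonged to Mmp23 (-1.93 ± 0.53, adjusted p 0.171), Mmp28 (-1.54 ± 0.47, 0.196) and Timp4 (-2.75 ± 0.88, 0.203). For Mmp28, VEH tumour replicate 3 lay inside the range of the HDM tumours. Without VEH tumour replicate 2 the value for Timp4 went to -1.06. All 4 genes that DESeq2 called are also lower in tumour than in lung in the main comparison, which includes these HDM tumours. Under VEH alone, edgeR called Mmp15 (-2.68, adjusted p 0.00855) and Mmp23 (-1.97, 0.0133) lower in tumour. It did not call Mmp28 (-0.70, 0.238) or Timp4 (-1.37, 0.186). The alveolar marker sum was 2212, 8429 and 2329 CPM in VEH and 2338, 2415 and 38.00 CPM in HDM tumours. Its part in these differences was not tested.

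In normal tissue, 0 members differed between HDM and VEH by edgeR, 0% of all genes were called, and 0 members had an unadjusted p below 0.05. DESeq2 called 0 members as well, and 0.171% of all genes. The smallest p belonged to Adamts14 (-1.75 ± 0.90, adjusted p 0.888), Mmp10, for which HDM libraries held 0 counts and VEH libraries at most 12 (adjusted p 0.894), and Timp1 (-1.21 ± 0.72, adjusted p 0.904). Adamts14 and Timp1 were highest in normal VEH replicate 2, and without it their values turned to 0.16 and 0.51. Only Mmp28 did not overlap between treatments, higher under HDM (23.5 to 28.7 CPM against 13.4 to 23.2 CPM), where 4.47% of all genes did the same. No member was lower under HDM without overlap, against 5.85% of all genes.

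Other genes of matrix turnover, from a list of 46 of which 43 were tested, were called higher for 17 and lower for 14 in tumour against normal tissue, with a median log2 change of 0.24. Over all genes tested, 28.1% were called higher and 34.8% lower, and the median was -0.09. Collagen maturation enzymes were called higher for 7 of 11 and lower for 4. Bmp1, which removes the carboxy-terminal propeptide of procollagens, had 2.76 ± 0.25 (adjusted p 1.52e-05), and Plod2, a lysyl hydroxylase, had 2.31 ± 0.22 (adjusted p 1.56e-05). Of 6 plasminogen system genes tested, 1 was called higher and 1 lower. The higher one was Plau, the urokinase that makes plasmin (3.46 ± 0.35, adjusted p 2.58e-05). Plg was not tested, with 0 counts in every library. Of 7 membrane regulators, 3 were called higher and 2 lower. Among them Reck, a membrane inhibitor of metalloproteinases, fell (-2.05 ± 0.29, adjusted p 0.000147). Of 7 AP-1 subunits, Fosl1 was higher (3.50 ± 0.63, adjusted p 0.00079) and Fos, Jun and Jund were lower, with -1.29 ± 0.49, -0.44 ± 0.15 and -0.74 ± 0.14 (adjusted p 0.0417, 0.0226 and 0.000895). Among substrates, Vcan rose (4.30 ± 0.77, adjusted p 0.000811), whereas Eln, which encodes elastin, fell (-1.45 ± 0.45, adjusted p 0.0159).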

How the data were processed

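The authors deposited raw counts per Ensembl gene with a gene length, per the file headers. The submitters' processing notes name Trim Galore, STAR, Subread and featureCounts and build mm39, and the labels' protocols a stranded dUTP library. Versions, annotation and strand setting of the counting are not given in the sources used here, so members overlapping another gene on the opposite strand are uncertain. Of 78298 identifiers, 78168 are in GENCODE M39 (GRCm39), and the other 130 hold 0.143% of counts.

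Counts were tested with edgeR 4.0.16 in R 4.3.3: filterByExpr (minimum count 10), TMM, 1 coefficient per group over all 12 libraries, robust quasi-likelihood F-test (two-sided), and Benjamini-Hochberg adjustment over all genes at 0.05. There were 6 comparisons. Standard errors were derived from F as the absolute log2 value over its square root. Scripts were tested on simulated data. Groups with at most 3 counts in every library were set at 3 counts for bounds. RPKM uses the deposited lengths. Alternatives used DESeq2 1.42.0, other scalings, filters, blocks and left-out libraries.

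Named with all values were the 8 largest rises and falls at an average log2 CPM of at least 1, all Timp and Lox genes, and the 3 smallest p per treatment comparison. Mmp14, Adamts1, Adamts2 and others were added after their values were seen. Members and lists were chosen with earlier results of these data known.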

Additional observations from a re-analysis of the deposited data

How the results depend on the processing

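For tumour against normal tissue, averaged over both treatments, 32 of the 41 calls (13 higher, 19 lower) were made under all alternatives that could test the gene, and none of the 41 changed direction. The other 9 were Adamts3, Adamts7, Adamts9, Adamts10, Adamtsl5, Mmp2, Mmp10, Mmp24 and Mmp24os1. The count of called members ranged from 37 to 45 when single libraries were left out, and was 30 of 34 with at least 10 counts in every library. Library-size scaling moved the median change of all genes from -0.09 to 0.06 and gave 16 members higher and 23 lower. For left-out single libraries, this count filter and library-size scaling, the share of all genes called is not given here. These counts are therefore not read as particular to the members. The count under HDM fell from 37 to 24 without the 4 libraries of conflicting prefixes, which leaves 2 libraries per group, and the share of all genes called fell from 51.9% to 37.9%. In tumours, the DESeq2 Wald test called 4 members between treatments where edgeR called 0, and 5.89% of all genes where edgeR called 0.0946%. The cause was not tested. Replicate numbers of the titles do not always match the library-name prefixes: normal HDM replicate 1 shares its prefix with tumour HDM replicate 3. Deviations of same-numbered libraries from their group means correlated between -0.355 and 0.303 over genes. With 3 libraries per group, such correlations cannot decide whether libraries are paired. A replicate block gave 42, 27 and 34 called members for tumour against normal on average, under VEH and under HDM, where 60.9%, 35.3% and 49.6% of all genes were called, and 0 in the other 3 comparisons. A block for library-name prefix, whose pairs correlated between -0.219 and 0.179, gave 39, 26 and 26, with 57.4%, 26.1% and 38.9% of all genes. Leaving out tumour VEH replicate 2 and tumour HDM replicate 3 together, an alternative chosen after seeing the data, gave 41, 32 and 37, with 58.6%, 41.2% and 42.9% of all genes. The 9 untested members held from 0 to 60 counts in all, and low expression and limited depth cannot be told apart there.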
